A study of Mus musculus with 2 samples.

Results

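The cells described here were chosen by a marker rule meant to pick out the granule neurons of the dentate gyrus. A cell was taken when Prox1 had a value of 2 or more, at least 2 of Glis3, Trpc6, Dock10, Tiam1 and Sema5a had a value of 2 or more, and Gad1 plus Gad2 summed to at most 2. The rule took 2339 of the 15930 cells of the study. These were 1182 of 7094 cells of the wild-type library and 1157 of 8836 cells of the knock-in library. Because the rule reads the same values that are described below, the levels of its 6 genes are given as a description and support nothing.

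Both libraries came from the hippocampus of C57Bl.6/J mice. One was made from wild-type controls and the other from animals homozygous for the edited allele Pigv341E, which encodes an altered mannosyltransferase of the glycosylphosphatidylinositol (GPI) anchor pathway. Both hippocampi of 4 mice were pooled in each library, the cells were freed mechanically in the cold, and the age and sex of the animals are not given in the labels. With 1 pooled library of each genotype there is no replicate: every difference below is between 2 libraries, carries no test, and cannot be told apart from the pool of animals or the preparation. The deposited values are whole numbers corrected for depth, so that totals per cell lay between 4846 and 14501, and the correction can write a 1 where no molecule was seen. Levels are therefore given as the sum of a gene over the cells per 10000 of all values, and intervals on shares of cells are exact Clopper-Pearson 95% intervals for counting error only.

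Granule neurons are the principal excitatory cells of the dentate gyrus. They receive the perforant path from the entorhinal cortex and send mossy fibres, unmyelinated axons with giant boutons, to CA3 pyramidal neurons and hilar mossy cells. New granule neurons are added throughout life from precursors in the subgranular zone, and the homeobox factor Prox1 is needed for their identity from the precursor onward. Prox1 is also expressed by some interneurons and by cells of the oligodendrocyte lineage, which is why a rule on Prox1 needs other genes beside it.

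The label was checked against markers the rule did not read, and a part of the cells went against it. Each cell was scored on 23 other genes known from granule neurons and on 8 genes of oligodendrocytes, counting a gene when its value was 2 or more. In 1707 cells at least 9 of the granule markers and under 4 of the oligodendrocyte markers counted, and these are called granule-profile cells below. In 491 cells at least 4 of the 8 oligodendrocyte markers counted, and 77 of these also had 9 or more granule markers. The remaining 141 cells met neither description. These limits were set after the values had been seen, and they were not used to change the rule.

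The mixture was alike in both libraries. Granule-profile cells numbered 862 among the wild-type cells taken (72.9%, 70.3 to 75.4%), and in the knock-in library they were 845 (73.0%, 70.4 to 75.6%). Cells with oligodendrocyte markers were 250 (21.2%, 18.9 to 23.6%) and 241 (20.8%, 18.5 to 23.3%). Among the remaining 141, at least 4 markers of microglia counted in 31 cells, of the immature granule list in 21, of astrocytes in 18 and of interneurons in 17. Median numbers of detected genes were 4001 and 4236 in granule-profile cells of the wild-type and knock-in libraries but 2263 and 2296 in the cells with oligodendrocyte markers.

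**Figure D1:**
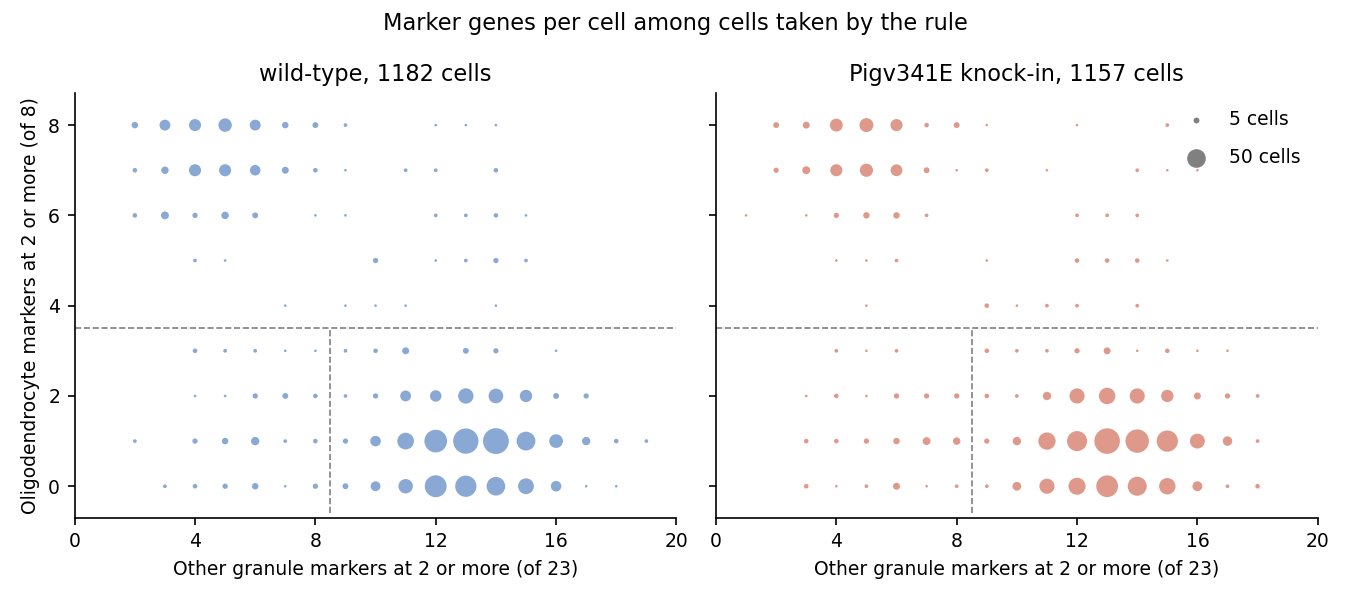
Each bubble is a group of cells taken by the rule, placed by how many of 23 other granule markers (x axis) and of 8 oligodendrocyte markers (y axis) had a value of 2 or more in the cell, with its area in proportion to the number of cells; the left panel is the wild-type library and the right panel the knock-in library. The dashed lines bound the granule-profile cells at the lower right, 862 and 845 cells, and the cells with oligodendrocyte markers above, 250 and 241 cells.

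Near the edges of the rule the mixture turned over. Among the 472 cells with just 2 of the 5 companion genes, 77.5% had oligodendrocyte markers and 2.33% the granule profile, whereas among the 1323 cells with all 5 the granule profile was found in 96.4%. Just outside, 939 cells had 1 of the 5 genes and met the rest of the rule, and 88.3% of them had oligodendrocyte markers. On the Prox1 side the picture was the reverse: 992 cells had Prox1 at 1 and met the rest, and 80.6% of them had the granule profile. Of the 1034 cells taken with Prox1 at 2, 66.8% had it. The limit on Gad1 and Gad2 left out 56 cells.

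Dock10 was at 2 or more in 99.2% of the cells with oligodendrocyte markers in both libraries. This guanine nucleotide exchange factor for small GTPases had a median value of 23 (quartiles 17 and 33) in the wild-type cells with oligodendrocyte markers and of 9 (quartiles 6 and 11) in the wild-type granule-profile cells. Glis3, a zinc finger factor, and Trpc6, a cation channel, had a median of 0 in the former and of 10 and 4 in the latter. In both libraries together, Prox1 was at 0 in 1910 of 3465 cells with oligodendrocyte markers, at 1 in 228 and at 2 in 755. Over all their genes such cells had 0.846 values of 2 for each value of 1, against 0.309 in granule-profile cells. Whether a value of 2 meant the same in both was not tested, nor was the part of the depth correction in this difference.

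Conversely, 1414 cells had the granule profile but were not taken, 678 of them wild-type and 736 knock-in. Prox1 was at 0 in 604 of them and at 1 in 803. In the wild-type library their Glis3 was at 9.12 per 10000 against 10.7 in the granule-profile cells taken, and Trpc6 at 4.80 against 4.86. These rule genes are not among the markers that define the profile. Lrrtm4, at 71.1 against 75.5, is one of those markers. Both groups were chosen by them, so its closeness was partly built in and is a description only. Since the rule did not use these cells, they serve below as a second sample of the same profile from the same libraries, though not of other animals.

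Prox1 itself was at 3.33 per 10000 in wild-type granule-profile cells and 3.14 in knock-in ones, and at 3.42 in wild-type cells with oligodendrocyte markers. RefSeq (GRCm38.p6) gives it a pair of starts on chromosome 1, and the 250 bases before the upstream start are shown because Prox1 is the gene that defines the cells. Capitals mark TATAAA or GGGCGG on either strand; CACGTG was searched too, and no searched motifs overlapped.
Prox1 promoter, chr1:190170828-190171077, minus strand: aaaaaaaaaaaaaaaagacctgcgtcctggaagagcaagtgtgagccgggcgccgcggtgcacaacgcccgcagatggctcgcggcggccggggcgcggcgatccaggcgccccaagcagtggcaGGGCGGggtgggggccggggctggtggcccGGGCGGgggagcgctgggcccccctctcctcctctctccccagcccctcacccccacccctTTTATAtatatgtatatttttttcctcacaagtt
This window holds 20 CpG dinucleotides, where the median over 32851 such windows is 6. TATAAA is found in 12.4% of these windows, GGGCGG in 32.7% and CACGTG in 6.02%. A match of letters is a description and not a binding site.

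Set against all other cells of the same library, 110 of 1861 genes with at least 1 per 10000 in both libraries (5.91%) had a level at least 2-fold higher in the cells taken, in both libraries. All other cells include the 1414 granule-profile cells that the rule did not take, which raises the level the cells taken are set against. Of the 20 with the highest ratio, Prox1, Glis3, Trpc6, Sema5a and Tiam1 were rule genes, which had to be there. Several of the others are genes of granule neuron wiring and identity. Slc29a4, a transporter of monoamines, was at 1.13 per 10000 in the wild-type cells taken, 0.214 in all others and 1.24 in the granule-profile cells among those others. Slc29a4 is one of the markers that define the profile, so its level in the granule-profile cells was partly built in. Gpc4, a GPI-anchored glypican known as a presynaptic partner at mossy fibre boutons, was at 1.92 against 0.490 among wild-type cells and at 2.09 against 0.485 in the knock-in library. Cdh9, a cadherin of the mossy fibre to CA3 synapse, was at 5.77 against 1.63 and at 7.25 against 1.71. Fam19a2 (a secreted chemokine-like protein), Chst9 (a sulphotransferase), Kif26b, Smoc2, Mkx and Shisa9 (an AMPA receptor auxiliary protein) were in the same group. With granule-profile cells alone the count was 222.

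Levels of granule markers that the rule did not read were set beside those in pyramidal neurons of the hippocampus. They are partly the genes that define the profile, so their levels are a description. Cells with CA1 markers and cells with CA3 markers served for comparison (946 and 484 wild-type cells). Glial-marker cells and granule-profile cells had been left out of both groups. Stxbp6, a binder of SNARE proteins, was at 10.9 per 10000 in wild-type granule-profile cells, 0.20 in CA1-marker cells and 0.606 in CA3-marker cells. Synpr, a synaptic vesicle protein of mossy fibres, was at 7.91, 0.297 and 1.32. With the cells left out put back, wild-type Stxbp6 was at 0.630 in CA1-marker and 2.54 in CA3-marker cells, and Synpr at 0.624 and 1.87. C1ql2, a secreted complement-like protein of mossy fibre boutons, was at 1.10, 0.0757 and 0.0465. Dsp, a desmosomal protein, was at 0.782, 0.00973 and 0.0111, and Calb1, the calcium buffer calbindin, at 0.859, 0.330 and 0.0398. Each of these was highest in the granule-profile cells.

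**Figure D2:**
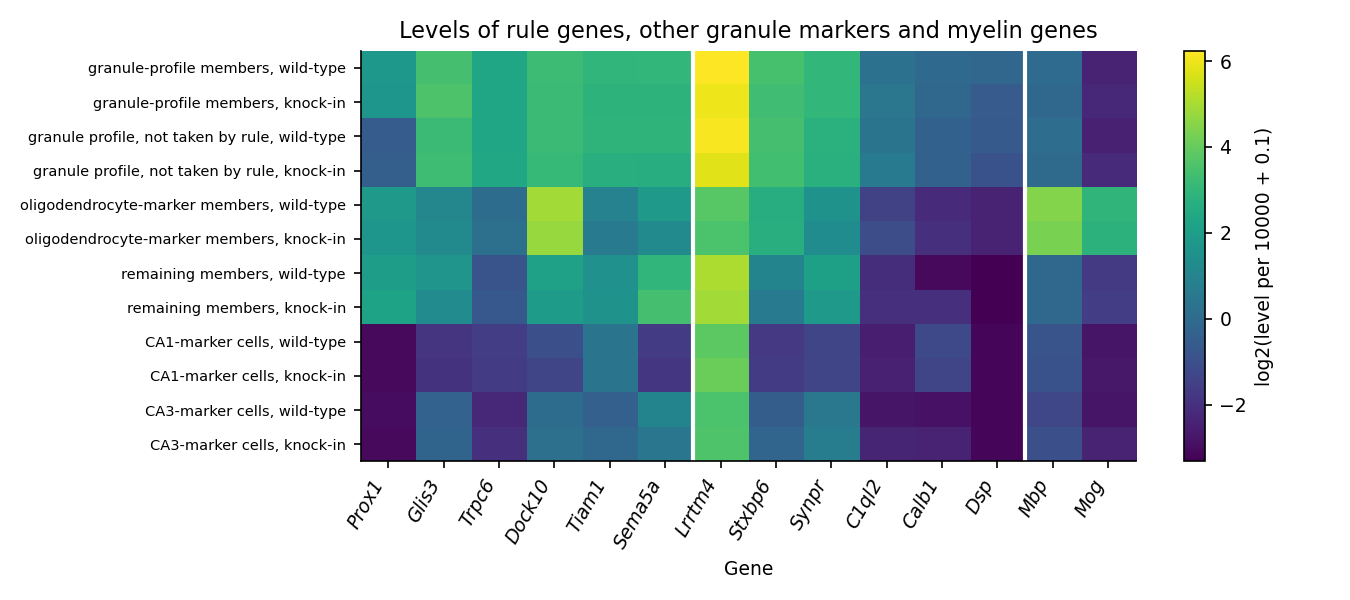
Colour gives log2 of the level per 10000 plus 0.1 for each gene (columns: 6 rule genes, 6 other granule markers and 2 myelin genes, divided by white lines) in each population and library (rows). The oligodendrocyte-marker cells have the highest Dock10 and Mbp, and the granule-profile cells not taken differ from those taken mainly in Prox1, which is 3.33 per 10000 in wild-type cells taken.

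Not every gene used as a marker of another class was low. Adarb2, an RNA-binding protein often used to mark a class of interneurons, was at 19.7 per 10000 in wild-type granule-profile cells and 16.5 in knock-in ones, against 0.476 in wild-type CA1-marker cells. Slc4a4, a bicarbonate transporter on the astrocyte list, was at 8.60 and 9.64, against 0.555 in CA1-marker cells. Zbtb20, a factor of hippocampal identity, was at 31.4 in granule-profile and 28.3 in CA3-marker cells of the wild-type library.

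Genes of the synapses that granule neurons make and receive were also read from lists. Lrrtm4, a postsynaptic heparan sulphate receptor of perforant path synapses, was at 75.5 per 10000 in wild-type granule-profile cells and 14.0 in CA1-marker cells. Kirrel3, an adhesion protein of the mossy fibre pathway, was at 20.2 against 5.59. The kainate receptor subunit gene Grik2 was at 14.9 against 6.31, whereas Grik4 was at 3.78 in granule-profile, 1.61 in CA1-marker and 11.3 in CA3-marker cells. Nrxn3, a presynaptic organiser, went the other way, with 9.62 in granule-profile and 47.7 in CA1-marker cells.

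Some receptor and channel genes had levels in granule-profile cells unlike those in CA1-marker cells, the only other class they are set beside here. Gabra4 and Gabrd, the subunits of the extrasynaptic GABA-A receptor that carries tonic inhibition, were at 2.85 against 1.03 per 10000 and at 0.664 against 0.161 in wild-type cells. The L-type calcium channel gene Cacna1c was at 14.4 against 4.59. Lower was Kcnq5, a potassium channel of the M-current, at 0.704 against 12.6. Of the adhesion proteins of the IgLON family, Negr1 was at 22.6 against 7.26 and Ntm at 0.957 against 16.9.

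The share of cells taken by the rule was lower in the knock-in library. It was 16.7% (15.8 to 17.5%) in wild-type and 13.1% (12.4 to 13.8%) in knock-in cells, a difference of -3.57 percentage points with a half-width of 1.12 for counting error. Cells of the granule profile in and outside the rule were 21.7% and 17.9%. Fewer granule neurons in the tissue and fewer of them in the suspension or among the other cells of the library cannot be told apart. Between the libraries 28 cell barcodes were shared, and 7 wild-type and 5 knock-in cells taken carried one of them.

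Within granule-profile cells 8 markers of position along the dorsal to ventral axis were read by their shares. Trhr, the receptor of thyrotropin-releasing hormone and a ventral marker, had a value of 2 or more in 3.48% of wild-type cells (30 of 862, 2.36 to 4.93%), against 7.22% in the knock-in library (61 of 845, 5.57 to 9.18%). Nr2f2, a nuclear receptor that is also ventral, reached it in 1.28% (0.639 to 2.27%) and 3.67% (2.51 to 5.17%). Gsg1l, an AMPA receptor auxiliary protein and dorsal marker, reached it in 25.4% (22.5 to 28.5%) and 19.9% (17.2 to 22.7%), and Spata13 in 11.1% (9.11 to 13.4%) and 7.93% (6.20 to 9.96%). Lct, also dorsal, reached it in 13.7% (11.5 to 16.2%) and 14.6% (12.2 to 17.1%). Stra6 reached it in 2.78% and 3.31%, Efnb2 in 2.78% and 2.25%, and Grp, a neuropeptide, in 0.696% and 0.592%. The intervals of Trhr and Nr2f2 did not overlap between the libraries, and those of the other 6 did. Over all 8900 genes with a value of 2 or more in at least 1% of the granule-profile cells, a set that leaves out Grp, the intervals did not overlap for 5.43%: the knock-in share was the higher one for 3.09% and the lower one for 2.34%. Whether the dissections sampled the axis unequally was not tested. Immature cells were rare: at least 4 markers of that list counted in 13 wild-type and 13 knock-in cells of all taken, but in 2 and 1 granule-profile cells.

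The edited gene was read first in the comparison of the libraries. Pigv, on the minus strand of chromosome 4 (133660387 to 133672647 in GRCm38), had a level of 0.0470 per 10000 among wild-type cells taken and 0.0589 among knock-in ones. A value above 0 was found in 4.06% (3.01 to 5.35%) and 5.36% (4.13 to 6.82%) of them. After each cell had been thinned to a total of 1000 these shares were 0.677% and 1.12%. No granule-profile cell of either library had a value of 2. With 3 cells of the total as the limit that a count of 0 allows, the share of such cells could be up to 0.348% in the wild-type and up to 0.355% in the knock-in library, a limit on cells at that value and not on expression. The allele cannot be read from these levels.

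A gene was said to be past a rule of size when the log2 ratio of its knock-in to its wild-type level, each raised by 0.1, was at least 1 in size, its level was at least 1 per 10000 in 1 library, and 10% or more of the cells there had a value of at least 2. Of 2047 genes at these limits, 10 were past the rule in the cells taken (0.489%): in the knock-in library 6 were higher and 4 were lower. In granule-profile cells 9 of 1994 were (0.451%), all 9 among those 10. In granule-profile cells outside the rule 9 of 2012 were (0.447%), of which 7 were shared. The median log2 ratio over all genes at the limits was -0.054 in the cells taken, and 68.5% of these genes had a lower level in the knock-in library.

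**Figure D3:**
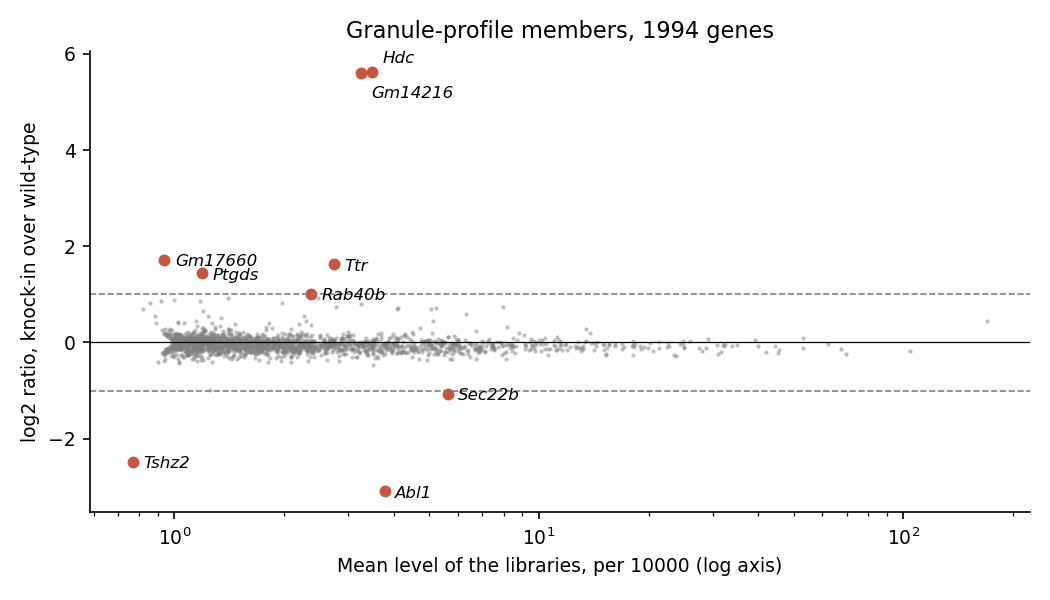
Each point is 1 of 1994 genes in granule-profile cells, with the mean level of both libraries per 10000 on a log axis (x) and the log2 ratio of the knock-in to the wild-type level, each raised by 0.1 (y); dashed lines mark ratios of 1 and -1. Red points are the 9 genes past the size rule, from Abl1 at -3.10 to Hdc at 5.63.

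Abl1, the non-receptor tyrosine kinase that signals from Eph receptors to the actin cytoskeleton, was the lowest. Its level was 6.84 per 10000 in wild-type granule-profile cells and 0.711 in knock-in ones, a log2 ratio of -3.10, and 7.89 and 1.11 (-2.73) over all cells taken. The median value was 6 (quartiles 4 and 9) in the 862 wild-type cells and 0 (quartiles 0 and 1) in the 845 knock-in cells. A value of 2 or more was found in 96.2% (94.7 to 97.4%) and 18.0% (15.5 to 20.7%). The distributions thus overlapped only at their edges, and 50 knock-in cells still had a value of 3 or more. Abl1 lies on chromosome 2 (31688376 to 31804227, plus strand, GRCm38).

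Hdc, histidine decarboxylase, which makes histamine, was the highest. It was at 0.0417 per 10000 in wild-type granule-profile cells and 6.92 in knock-in ones (log2 ratio 5.63). Of the 862 wild-type cells 827 were at 0 and 35 at 1, and none was at 2 or more, which allows a share of up to 0.348% by the same limit of 3 cells. Of the 845 knock-in cells 4 were at 0, and the median was 6 (quartiles 4 and 9). After thinning, Hdc was above 0 in 0.580% of wild-type granule-profile cells and 48.8% of knock-in ones, and Abl1 in 48.6% and 7.34%, where the unthinned shares were 4.06% and 99.5% for Hdc and 98.96% and 43.7% for Abl1. In the wild-type cells with oligodendrocyte markers 181 of 250 had Hdc at 1 and 2 had it at 2. Hdc lies on chromosome 2 (126593667 to 126619299, minus strand).

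Gm14216, a long intergenic noncoding RNA gene on chromosome 2 (154722352 to 154738451, minus strand), had values close to those of Hdc. It was at 0.0345 per 10000 in wild-type granule-profile cells and 6.45 in knock-in ones, a log2 ratio of 5.61. A value of 2 or more was found in 0 of 862 wild-type cells (up to 0.348% by the limit of 3 cells) and in 96.6% (95.1 to 97.7%) of knock-in cells. Its position is far from that of Hdc on the same chromosome.

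Hdc had the highest and Abl1 the lowest ratio, so the 250 bases before a RefSeq start of each are shown (GRCm38.p6, capitals as for Prox1). Of the pair of Abl1 windows the upstream one is shown, and none is shown for Gm14216. The Hdc and Abl1 windows both lie inside the spans given above for these genes, so neither is at the outer end of its span.
Hdc promoter, chr2:126618679-126618928, minus strand: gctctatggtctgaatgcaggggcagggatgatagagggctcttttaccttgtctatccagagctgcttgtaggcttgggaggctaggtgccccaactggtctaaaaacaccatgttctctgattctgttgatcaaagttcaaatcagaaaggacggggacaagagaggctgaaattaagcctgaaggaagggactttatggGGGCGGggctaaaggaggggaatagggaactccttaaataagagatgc
Abl1 promoter, chr2:31759689-31759938, plus strand: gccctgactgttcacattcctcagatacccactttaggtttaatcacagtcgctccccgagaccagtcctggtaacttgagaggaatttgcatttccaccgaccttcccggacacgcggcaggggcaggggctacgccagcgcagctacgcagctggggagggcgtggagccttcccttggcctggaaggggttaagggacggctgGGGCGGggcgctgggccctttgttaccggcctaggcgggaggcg
Each window holds 1 GGGCGG and no TATAAA or CACGTG. The Hdc window has 2 CpG dinucleotides and the Abl1 window 16. The motif that both windows share is also in 32.7% of all windows.

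Sec22b, a SNARE of transport between endoplasmic reticulum and Golgi, was at 7.65 per 10000 in wild-type granule-profile cells and 3.61 in knock-in ones (log2 ratio -1.06). Its median value was 7 (quartiles 5 and 10) and 3 (quartiles 2 and 5), so the cells of the libraries overlapped widely. Rab40b, a small GTPase, was at 1.54 and 3.21 (1.01), with medians of 1 and 3. Gm17660 was at 0.383 and 1.49 (1.72), and a value of 2 or more was found in 4.29% of wild-type and 44.3% of knock-in cells.

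Other classes had differences of the same sign in these genes. In CA1-marker cells the log2 ratio was -3.50 for Abl1, 5.32 for Hdc, 5.33 for Gm14216, -1.11 for Sec22b, 1.24 for Rab40b and 2.01 for Gm17660. In CA3-marker cells the same genes were at -3.41, 5.01, 5.12, -1.16, 1.53 and 2.05. The cells with oligodendrocyte markers had -2.16 for Abl1, 3.46 for Hdc and 3.45 for Gm14216. In the granule-profile cells outside the rule Abl1 was at -2.85 and Hdc at 5.16.

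**Figure D4:**
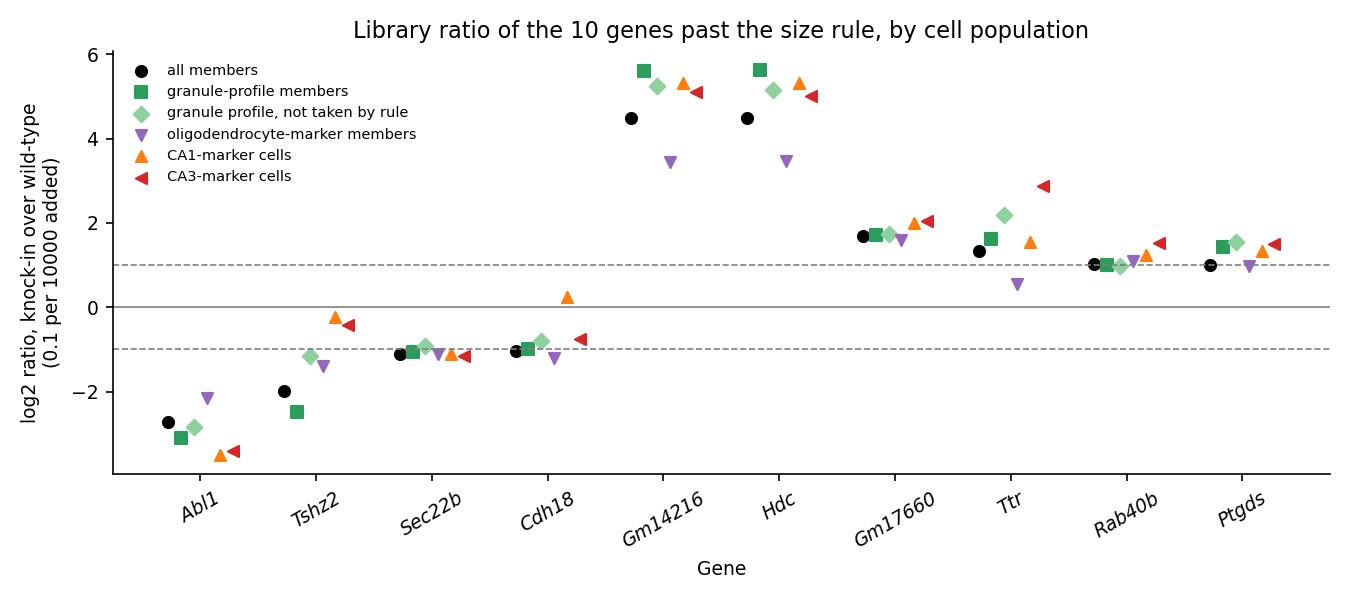
Points give the log2 ratio of the knock-in to the wild-type level (y axis, each raised by 0.1 per 10000) for the 10 genes past the size rule (x axis) in 6 populations; dashed lines mark 1 and -1. Cdh18 alone changes sign, at 0.25 in CA1-marker cells, and the other genes keep their sign in all populations shown. Tshz2 ranges from -2.49 in granule-profile cells to -0.23 in CA1-marker cells.

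Tshz2, a zinc finger transcription factor, had its lowest ratio in granule-profile cells among the populations read. It was at 1.38 per 10000 in wild-type granule-profile cells and 0.163 in knock-in ones, a log2 ratio of -2.49. In the wild-type library 221 of 862 cells were at 0, 326 at 1, 203 at 2 and 112 at 3 or more. In the knock-in library 774 of 845 were at 0, 59 at 1, 4 at 2 and 8 at 3 or more. A value of 2 or more was thus found in 36.5% (33.3 to 39.9%) and 1.42% (0.736 to 2.47%). In CA1-marker cells the level was 7.77 and 6.60, a log2 ratio of -0.23, and in CA3-marker cells 4.33 and 3.21, a ratio of -0.42.

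The share of cells with Tshz2 at 2 or more was lower in the knock-in library in those classes as well. It was 52.0% and 24.2% in CA1-marker cells and 48.3% and 25.7% in CA3-marker cells. Granule-profile cells outside the rule had 1.89 and 0.795 per 10000 (-1.15). The wild-type library therefore had values of 1 and 2 for Tshz2 in cells of several classes, and the difference between classes was not tested. Tshz2 lies on chromosome 2 (169633013 to 170071816, plus strand). The GENCODE annotation places noncoding genes on the opposite strand within Tshz2 and at the start of Abl1, and whether the counting used strand is not given in the sources used here.

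Cdh18, a neuronal cadherin, was at 1.62 per 10000 in wild-type cells taken and 0.743 in knock-in ones (log2 ratio -1.03). In granule-profile cells it was at 1.71 and 0.807 (-0.99), which is just short of the rule. A value of 2 or more was found in 45.5% (42.1 to 48.9%) and 18.6% (16.0 to 21.4%) of granule-profile cells. In CA1-marker cells the level was 3.39 and 4.05 (0.25), while the share at 2 or more was 61.7% and 40.2%, lower in the knock-in library as in granule-profile cells.

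Ttr and Ptgds are secreted proteins made mostly outside neurons, Ttr (transthyretin) by the choroid plexus and Ptgds (a prostaglandin synthase) by meningeal cells and oligodendrocytes. Ttr was at 1.29 per 10000 in wild-type granule-profile cells and 4.19 in knock-in ones (log2 ratio 1.62), but its median was 1 in both. Its sum rested on a few cells: 3 knock-in cells with a value of 50 or more, the highest at 1644, held 71.4% of it, and 1 wild-type cell at 426 held 39.2%. Without these cells the levels were 0.787 and 1.20, a log2 ratio of 0.56, and over all cells taken 1.21 and 1.88 (0.60). A value of 2 or more was found in 17.7% (15.3 to 20.5%) and 32.1% (28.9 to 35.3%). The higher level of the sum is therefore not one of the typical cell, although a low value was more frequent in the knock-in library.

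Ptgds was at 0.597 per 10000 in wild-type granule-profile cells and 1.78 in knock-in ones (log2 ratio 1.43), and at 7.21 and 14.4 in cells with oligodendrocyte markers. It reached 2 or more in 11.0% (9.01 to 13.3%) and 44.7% (41.3 to 48.2%) of granule-profile cells. Some other genes of non-neuronal cells, though not all, had higher levels in the knock-in granule-profile cells. Of 4 oligodendrocyte genes at 0.2 per 10000 or more, 3 were higher and Mbp was lower (log2 ratio -0.10). Of 3 astrocyte genes at that level, 2 were higher and Slc1a2 was lower (-0.18). Over all 7294 genes at that level 4280 were higher and 3014 (41.3%) lower, and the difference of these few genes from all genes was not tested. The microglial gene C1qa, the only one of its list at 0.5 per 10000 or more in a library, was at 0.194 and 0.571. At least 4 microglial markers counted in 9 wild-type (1.04%) and 19 knock-in (2.25%) granule-profile cells. The part of these cells in the level of C1qa was not tested. Of 8 microglial markers the summed level per cell had a median of 0 in wild-type granule-profile cells and 0.990 in knock-in ones, with ranges of 0 to 96.2 and 0 to 140. The 7 choroid plexus markers summed to a median of 0.997 (range 0 to 593) and 1.02 (range 0 to 1677). The part of RNA from other cells in the values of Ttr and Ptgds was not tested.

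Mitochondrially encoded genes and most nuclear noncoding RNAs of a short list were higher in the knock-in granule-profile cells too. All 8 mitochondrially encoded genes whose mean level reached 0.2 per 10000 had a higher level there, with a median log2 ratio of 0.75, against 0.03 over all 7294 genes at that level. mt-Cytb was at 3.84 and 6.26 per 10000. The nuclear noncoding RNA Malat1 was at 144 and 196 (0.45), with Meg3 at 8.20 and 9.45 (0.20). Of 7 nuclear RNAs at the level of 0.2 per 10000, 6 were higher, and Snhg14 was lower, at 5.73 and 5.04 (-0.18). Over all 7294 genes at that level 4280 were higher. The 8 nuclear RNAs summed to a median of 140 per 10000 (quartiles 108 and 202) in wild-type and 192 (quartiles 149 and 274) in knock-in cells.

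Because of this difference the granule-profile cells of each library were split into quartiles of Malat1. In wild-type cells Abl1 was at 4.50, 5.71, 6.75 and 10.3 per 10000 from the lowest to the highest quartile. Sec22b went from 4.82 to 11.7 in the same cells. In knock-in cells Hdc was at 4.16, 5.63, 7.08 and 10.7, Gm14216 went from 3.92 to 9.82 and Sec22b from 2.16 to 5.50, whereas Abl1 was at 0.776 and 0.597 in the lowest and highest quartile. Prox1 was at 3.52 and 3.20 in the lowest and highest quartile of wild-type cells and at 3.30 and 3.01 in those of knock-in cells. All these cells were taken for Prox1 at 2 or more, so its narrow range was partly built in and is a description only. In every quartile Abl1 was lower and Hdc higher in the knock-in library. The quartiles were cut within each library and are not matched: median Malat1 ran from 70.9 to 244 in wild-type and from 99.2 to 322 in knock-in cells. The part of Malat1 in the differences between the libraries was not tested.

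**Figure D5:**
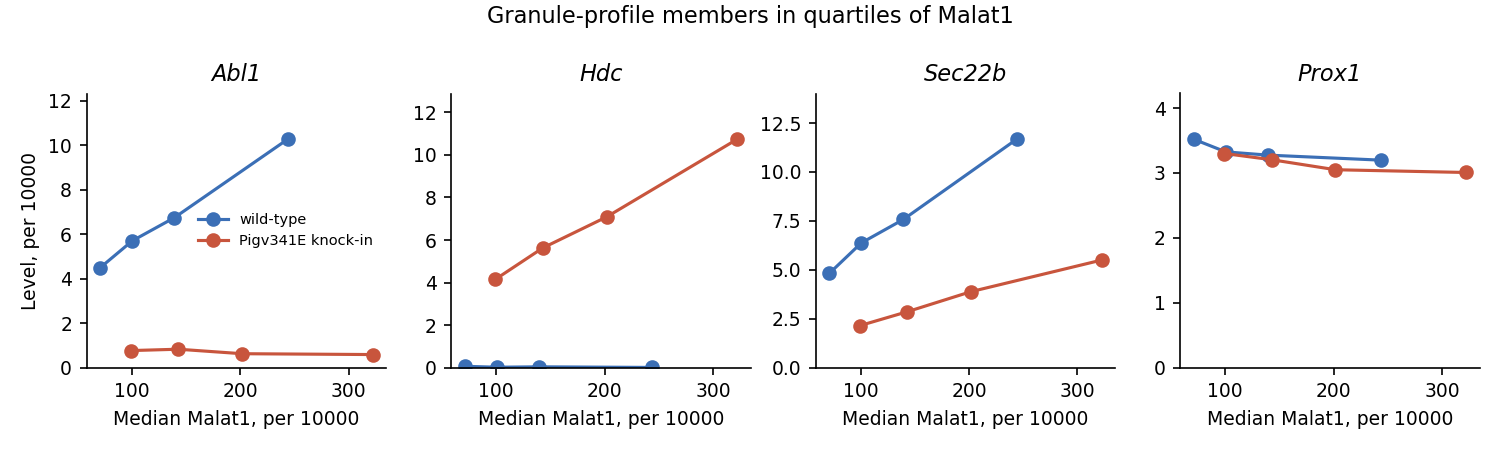
Levels per 10000 (y axis) of Abl1, Hdc, Sec22b and Prox1 in granule-profile cells split into 4 quartiles by Malat1, plotted at the median Malat1 level of each quartile (x axis) for the wild-type (blue) and knock-in (red) library. Wild-type Abl1 lies between 4.50 and 10.3 and knock-in Hdc between 4.16 and 10.7 along Malat1, while Prox1 stays between 3.01 and 3.52.

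The Eph receptors, their ephrin ligands and the Abl kinases are named by the study's title. Of this list 9 genes reached a mean of 1 per 10000 in granule-profile cells. The knock-in level was the lower one for 8 of them, and the median log2 ratio was -0.18. Over all 1908 genes at that level 66.6% were lower and the median was -0.05. Apart from Abl1 none was past the size rule. Epha6 was at 13.9 and 12.2, Epha7 at 11.4 and 10.8, Epha4 at 6.56 and 5.63, and Epha5 at 6.05 and 5.23. Abl2, the paralog of Abl1, was at 1.94 and 1.82 (-0.09), and the GPI-anchored ligand Efna5 at 0.601 and 0.511.

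Genes that act on the actin cytoskeleton through small GTPases had ratios near 0. Of 13 at the level of 1 per 10000, 12 were lower, with a median of -0.05 and the lowest, Dock9, at -0.16. Kalrn, an exchange factor of dendritic spines, was at 28.6 and 26.5. Axon guidance genes had a median of -0.12 over 14 genes, 12 of them lower. Robo2, a receptor of Slit ligands, was at 6.48 and 5.07 (-0.35), Slit3 at 21.9 and 19.4, and Plxna4 at 13.4 and 13.6. None of these was past the size rule. The share of lower genes was above the 66.6% of all genes in both lists, which was not tested.

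The GPI anchor pathway and the proteins it anchors showed no gene past the rule. Few could have been: the limits of level and share were reached by 1 biosynthesis gene and by 16 genes of anchored proteins. Of 13 biosynthesis genes with at least 0.2 per 10000, 9 were higher and 4 lower, with a median of 0.04 against 0.03 over all genes. Of all genes at that level 41.3% were lower. Pigk, a subunit of the transamidase that attaches the anchor, was at 7.26 and 7.21. Of 31 genes of anchored proteins at that level, 14 were higher and 17 lower, with a median of -0.02 and a range from -0.35 (Gpc3) to 0.56 (Cntn4). Lsamp was at 70.8 and 64.2, Opcml at 26.1 and 21.5, Negr1 at 22.6 and 22.5, and the growth factor receptor Gfra1 at 1.91 and 2.50. Transcript levels do not tell how much of each protein reaches the surface.

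Genes of transmission gave the same picture of small ratios. Glutamate receptor genes at 1 per 10000 or more had a median log2 ratio of -0.05, with 13 of 16 lower. Over all 1908 genes at that level the median was -0.05 and 66.6% were lower. The difference of any list from all genes was not tested. Grin2a was at 33.0 and 31.6 per 10000 and Gria1 at 26.1 and 24.1. Among these 16 the ratio farthest from 0 was that of Grik3, a kainate receptor subunit, at 1.19 and 0.863 (-0.42). GABA receptor genes had a median of -0.03 (8 of 10 lower). Channel genes had a median of -0.07 (22 of 27 lower), with Cacna1a, the P/Q-type calcium channel, at 4.96 and 4.00 (-0.30).

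Presynaptic genes had a median of -0.01, with 10 of 17 lower. Syt1, the calcium sensor of release, was at 22.2 and 20.5, and Cplx2 at 2.82 and 2.92. Postsynaptic scaffolds and kinases had a median of -0.10 (13 of 17 lower). Dlg2 was at 55.2 and 51.1, and Camk2a at 16.0 and 14.7. None of the receptor, channel, presynaptic and postsynaptic genes read was past the size rule.

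Among the identity genes Pdzd2 (4.34 and 5.92, log2 ratio 0.44) and Dsp (0.782 and 0.569, -0.40) were farthest from 0, and Lrrtm4 was at 75.5 and 63.9 (-0.24). Of 16 other granule markers at 1 per 10000 or more, 9 were lower and 7 higher, and the median was -0.01. Over all genes at that level 66.6% were lower. Immediate early genes, which neurons induce on activity, were near the lower limit: 4 of 19 listed had at least 0.2 per 10000, all 4 higher, with a median of 0.25 and Homer1 at 0.907 and 0.946. Over all 7294 genes at that level 4280 were higher, with a median of 0.03.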

How the data were processed

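Cells of 2 pooled hippocampal libraries, 1 of each genotype, were measured with a 3-prime droplet assay. The authors deposited 1 table of 30223 genes by 15930 cells, whose whole-number values are treated here as a score: per the table's name they are depth-corrected, and their totals per cell were too even for raw counts, so no count model was used and sequencing depth is unknown. Per the submitters' processing notes, Seurat 3.0.0 and the GRCm38 build were used; the aligner and any filter on cells are not given in the sources used here. Cells were assigned to libraries by the prefix of their names.

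No cell was removed in the main setting and doublets were kept. Scrublet (scanpy 1.11.5, expected rate 6%, each library by itself) called 61 cells of the wild-type library (0.860%) and 209 of the other (2.37%), of which 12 and 30 had been taken by the rule. Levels, log2 ratios with 0.1 added and the size rule are as the report states, and were checked in a self-test with known ratios. Genes named are the rule genes, listed genes with at least 0.5 per 10000 in 1 library, genes past the size rule, up to 10 in each direction, the 20 highest against all other cells, Pigv and Abl1. The cells, the rule and the gene lists were chosen with earlier results of these data known. The granule-profile cells, the oligodendrocyte-marker cells and the comparison cells without glial-marker or granule-profile cells were defined after the values had been seen. Alternatives covered the rule, values of 1, the added constant, the way of averaging, doublets, glial and total-value limits, minimum level and share, thinning to a total of 1000, and high single-cell values. Of the listed genes 9 were not analysed here. Promoter windows are RefSeq sequences of GRCm38.p6, found for every gene shown. Python 3.11.15, numpy 2.4.6, scipy 1.17.1 and pandas 2.3.3 were used.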

Additional observations from a re-analysis of the deposited data

Results flagged for a closer look

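The log2 ratios of Cdh18 and Ttr had opposite signs in the cells taken by the rule and in another set of cells, and neither difference was tested. Cdh18 had a log2 ratio of -1.03 in the cells taken and of 0.249 in CA1-marker cells without glial markers. Its share of cells at 2 or more went the same way in both, from 43.2% to 17.2% and from 61.7% to 40.2%. Ttr had a log2 ratio of 1.33 in the cells taken and of -0.363 in all other cells, whose levels were 26.7 and 20.8 per 10000. Its share at 2 or more went from 27.7% to 44.1% in the cells taken and from 36.7% to 48.2% in all others, the same direction. All other cells include choroid plexus cells, where Ttr is abundant, and the ratio in the cells taken rested on 3 knock-in cells: without cells at 50 or more it was 0.60.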

How the results depend on the processing

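The share of cells taken followed the rule. In wild-type and then in knock-in cells it was 7.96% and 6.07% under a stricter rule (Prox1 at 3 or more, at least 3 of 5 genes), 22.9% and 19.3% with Prox1 at 1 or more, 12.2% and 9.56% for granule-profile cells alone, and 21.7% and 17.9% for granule-profile cells in and outside the rule. The difference was -1.90 percentage points under the stricter rule, and negative in every setting run. The count of genes past the size rule lay within 1.5 times the main count in every setting. The count against all other cells was 222 with granule-profile cells alone.

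Over 11 settings Abl1 (-3.14 to -2.38), Tshz2 (-2.67 to -1.15), Hdc (3.44 to 6.52), Gm14216 (3.39 to 6.52) and Gm17660 (1.15 to 2.53) stayed past the rule. Cdh18 and Rab40b fell short in 4 settings each, Ttr in 3, Ptgds in 2 and Sec22b in 1. No ratio of these genes reversed. Ttr was at 0.59 with each gene's values limited to its 99th percentile over the cells taken, and at 0.63 without the 10% of cells highest in glial and choroid plexus genes. No paired analysis was possible because each genotype is 1 library. The self-made splits and the limit on high values were chosen after seeing the data. Depth per cell is unknown, so a value of 1, or a low share, sets no limit on expression.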
